A study of Mus musculus with 5 samples.

Results

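The transcription factor Nrf2 (gene Nfe2l2), its inhibitor Keap1 and 8 of the genes that Nrf2 is known to switch on were followed in peritoneal macrophages of 2 c-Jun-deleted and 3 wild-type mice. The 10 genes were chosen by symbol, and they are all the spots of 1-colour Agilent arrays whose transcript maps to one of those symbols, 11 probes of 55681 on the array. They are 10 of the 21154 gene symbols that have a probe. The c-Jun-deleted animals, numbered 1 and 9, carried the genotype cJunfl/fl LysMCre-/+, in which Cre recombinase made from the Lyz2 locus of myeloid cells removes the floxed Jun gene. Their source names write Mx where titles and genotypes write LysM. The wild-type animals, numbered 5, 11 and 14, were littermates, and the labels do not say whether they carried floxed alleles or Cre. All were 8 weeks old, on a mixed 129/C57Bl6 background, of either sex, and gave cells by lavage that were plated overnight and freed of floating cells before 50 ng of RNA was labelled.

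Nrf2 is made all the time, and in unstressed cells Keap1 holds it and hands it to a ubiquitin ligase for breakdown. Oxidants and electrophiles modify cysteines of Keap1, and Nrf2 then collects in the nucleus, pairs with a small Maf protein and binds the antioxidant response element (ARE) of genes for glutathione, thioredoxin, quinone and heme handling. In macrophages this response limits oxidative damage during phagocytosis. Much of the control acts on the Nrf2 protein, which arrays do not measure. The core of the ARE resembles the element bound by AP-1, the family of dimers to which c-Jun belongs.

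Promoter windows of RefSeq (assembly GRCm38.p6, from 250 bases before to 50 bases after a gene's start) were found for 8 of the 10 genes in 10 windows; Gclc and Hmox1 are named only. They were searched on both strands for the ARE core, TGACNNNGC or TGAGNNNGC, and for the AP-1 element TGACTCA, whose reverse strand reads TGAGTCA. An ARE core match lay in 5 of the 10 windows, 1 each of Nfe2l2, Slc7a11, Gclm, Txnrd1 and Srxn1, and in 27.8% of all 32851 windows. The AP-1 element lay in 1 of the 10 windows, that of Srxn1, and in 5.2% of all windows. Shown here are the windows with a match of 4 genes whose levels had the same highest and lowest array, with matches in capitals; the strand is that of the gene.
Nfe2l2, chr2:75704614-75704913, minus strand: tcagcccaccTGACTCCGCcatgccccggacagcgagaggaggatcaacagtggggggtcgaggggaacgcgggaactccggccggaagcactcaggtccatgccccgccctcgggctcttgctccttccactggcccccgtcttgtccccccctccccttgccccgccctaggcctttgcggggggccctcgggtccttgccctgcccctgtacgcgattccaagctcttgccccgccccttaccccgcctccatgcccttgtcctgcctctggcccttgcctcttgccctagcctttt
Slc7a11, chr3:50443564-50443863, minus strand: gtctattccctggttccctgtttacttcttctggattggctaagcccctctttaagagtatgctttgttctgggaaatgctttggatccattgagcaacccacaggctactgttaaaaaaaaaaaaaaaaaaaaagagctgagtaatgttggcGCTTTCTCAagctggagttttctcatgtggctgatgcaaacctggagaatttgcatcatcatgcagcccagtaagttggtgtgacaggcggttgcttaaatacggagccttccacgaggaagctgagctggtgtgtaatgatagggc
Txnrd1, chr10:82858956-82859255, plus strand: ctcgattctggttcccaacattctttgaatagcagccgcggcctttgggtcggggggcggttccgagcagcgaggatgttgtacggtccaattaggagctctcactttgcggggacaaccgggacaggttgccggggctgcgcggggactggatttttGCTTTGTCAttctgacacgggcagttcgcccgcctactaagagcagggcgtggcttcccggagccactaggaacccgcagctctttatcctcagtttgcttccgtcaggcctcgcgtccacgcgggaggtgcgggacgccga
Srxn1, chr2:152105274-152105573, plus strand: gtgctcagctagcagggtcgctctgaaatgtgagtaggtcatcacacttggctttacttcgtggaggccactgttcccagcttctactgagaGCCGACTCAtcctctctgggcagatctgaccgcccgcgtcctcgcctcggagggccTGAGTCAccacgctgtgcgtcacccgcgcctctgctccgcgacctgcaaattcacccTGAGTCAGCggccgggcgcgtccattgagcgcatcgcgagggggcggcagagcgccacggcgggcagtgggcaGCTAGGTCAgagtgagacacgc
In the Srxn1 window the match TGAGTCAGC, whose first base is at -45 from the start, holds the AP-1 letters and the ARE core together, and another AP-1 element begins at -102. The other 2 Txnrd1 windows held neither motif. A match describes these letters, not binding. Elements outside the windows were not searched for, so a gene without a match may still have one.

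Of all probes on an array, between 53.0% and 60.6% of the spots were well above background, and no spot was saturated. All 11 probes of the 10 genes were well above background on all 5 arrays, and none of their spots was flagged. Macrophage markers were well above background on every array for 7 of 7. Of these, 4 (Csf1r, Mertk, Fcgr1, Lyz2) had both c-Jun-deleted values below the wild-type ones and 2 (Cd68, Itgam) above them. Of all genes tested, 20.2% lay below and 13.3% above in this way, which is the share to set beside each marker count here. The median log2 difference of the 7 was -0.40. Their summed level on the linear scale, in multiples of the 75th percentile, was 501 and 805 in c-Jun-deleted 1 and 9, against 914, 795 and 1040 in wild-type 5, 11 and 14. A level here means the base-2 logarithm of a probe's signal after division by its array's 75th percentile, so a difference of 1 is a doubling. Jun itself was at 2.76 and 2.71 in c-Jun-deleted and at 3.21, 3.75 and 3.17 in wild-type macrophages (log2 difference -0.64, SE 0.23; limma adjusted p = 0.391); the position of its probe against the floxed part is not given in the sources used here, and the genotype is not checked by it. Lyz2, the locus that carries Cre, was at 4.46 in c-Jun-deleted 1 and 8.52 in c-Jun-deleted 9. In the wild-type samples it was at 8.70, 8.76 and 9.18. Lyz2 is among the 7 summed macrophage markers and was the brightest of them on every array but c-Jun-deleted 1. The low macrophage sum of c-Jun-deleted 1 therefore rests largely on Lyz2. Whether the Lyz2 level follows the Cre allele or the macrophage content was not tested. Adgre1, the remaining macrophage marker, was at 7.52 and 7.36 against 7.64, 6.68 and 7.51, so the groups overlapped. B cell markers lay apart between the groups: 10 of 10 had both c-Jun-deleted values higher than any wild-type value, next to 13.3% of all genes. None passed the test (limma adjusted p from 0.212 to 0.273). Their summed level was 323 and 472 in c-Jun-deleted 1 and 9, against 95.4, 74.4 and 48.9 in wild-type 5, 11 and 14. Of 8 T and NK cell markers, 1 (Cd2, at 5.06 and 5.44 against 3.46, 3.31 and 2.50) lay apart between the groups, and 6 were highest on wild-type 11; their sums were 52.8 and 69.5 against 21.1, 43.5 and 15.9. Summed erythroid markers were at 10.7 and 22.9 against 1.40, 0.960 and 0.541, and 5 of 6, all globin genes, lay above the wild-type values. The other, Slc4a1, lay below them, at -5.29 and -4.91 against -4.63, -4.42 and -4.87. It was well above background on 1 of 2 c-Jun-deleted and 2 of 3 wild-type arrays. Summed markers of large peritoneal macrophages were at 231 and 264 against 178, 87.6 and 117.0, and 4 of 8 lay above the wild-type values. Mesothelial and stromal markers went the other way, with 0 of 8 higher in the mean, 5 of 8 below the wild-type values, a median of -1.13 and sums of 2.28 and 3.61 against 4.00, 8.83 and 7.45. No marker tested had a signal of 0, but not all were well above background on every wild-type array. Those that were numbered 9 of 10 for B cells, 6 of 8 for T and NK cells and 7 of 8 for mesothelial and stromal cells. Among erythroid markers they were only 2 of 6. Xist at -4.53 and the Y-linked Ddx3y at 1.35 set wild-type 11, a male by these genes, apart from the other 4 samples, which had Xist between -0.037 and 0.74 and no Ddx3y well above background. The Y-linked Eif2s3y and Kdm5d were also well above background on 1 wild-type array. Uty, another Y-linked gene, was so on 2 wild-type arrays, and was at -2.06 on wild-type 11 and -3.97 on wild-type 14. Slide 1 carried c-Jun-deleted 1 and wild-type 5, and slide 2 carried c-Jun-deleted 9, wild-type 11 and wild-type 14.

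The comparison asked whether the Nrf2 system differs between macrophages of mice labelled c-Jun-deleted and of wild-type mice. Of the 10 genes, 0 had a limma p below 0.05 after Benjamini-Hochberg adjustment, against 0% of the 27938 genes tested (unnamed probes counted as genes), and 0 had an unadjusted p below 0.05, against 12.2% of all genes. The mean was higher in c-Jun-deleted macrophages for 4 genes (Keap1, Gclc, Gclm, Nqo1) and lower for 6. The median of the 10 log2 differences was -0.076, next to -0.092 over all genes tested, and the single differences ran between -0.58 and 0.38. Both c-Jun-deleted samples lay above the wild-type range for 1 gene, Gclc, against 13.3% of all genes, and below it for 0 genes, against 20.2%. For the other 9 genes the groups overlapped, as the plot of each gene by array shows. With 2 samples against 3, the 95% intervals were wide: that of Gclc, the narrowest, covered 0.924-fold to 1.63-fold, and that of Slc7a11, the widest, 0.166-fold to 2.72-fold.

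**Figure D1:**
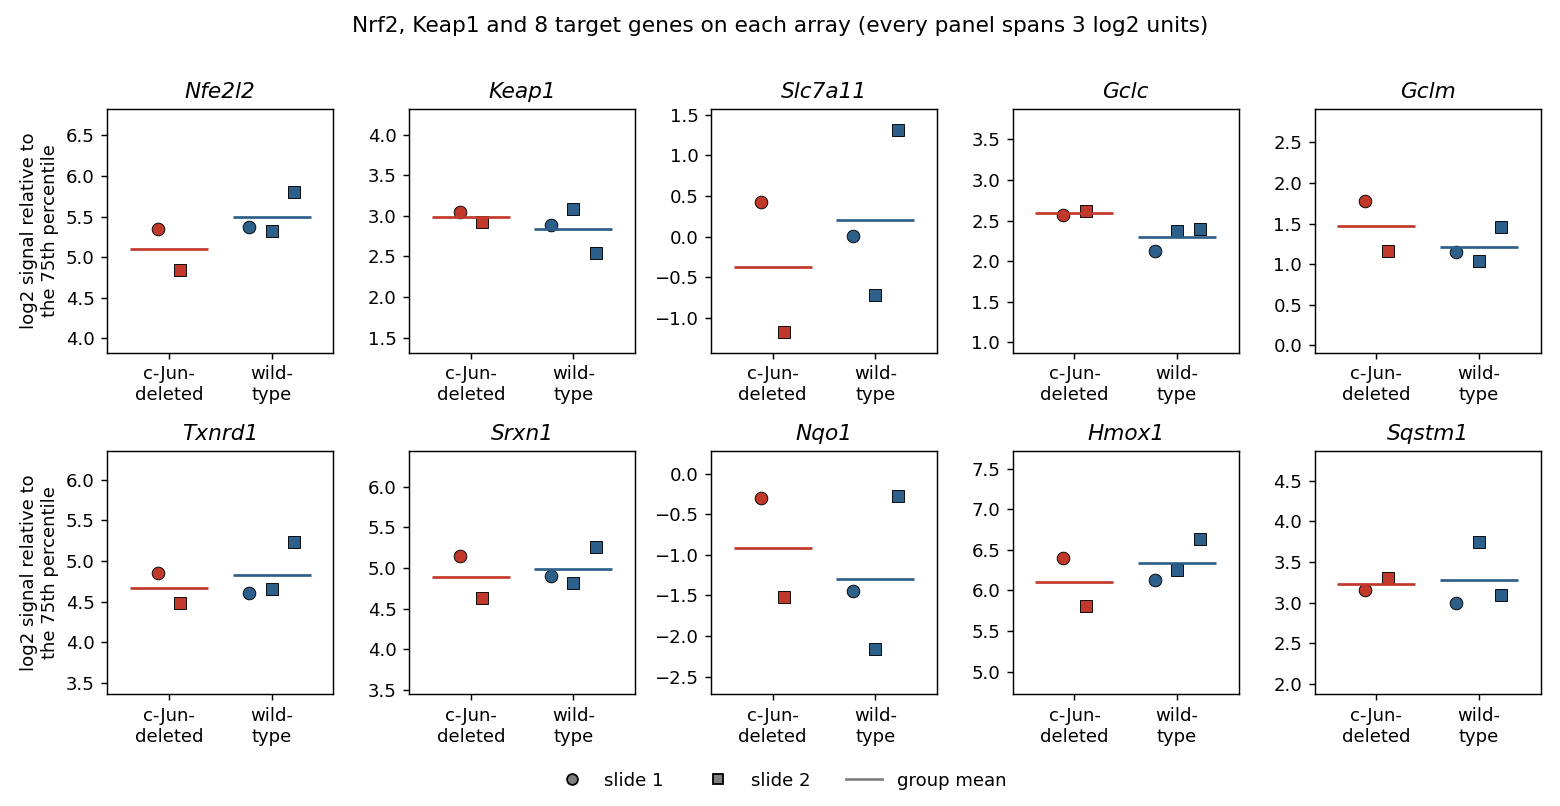
Log2 level over the array's 75th percentile (y axis) for the 10 genes in c-Jun-deleted (left, n = 2) and wild-type (right, n = 3) macrophages; points are arrays, circles slide 1 and squares slide 2, and lines are group means. The c-Jun-deleted points stand clear of the wild-type points for Gclc alone, at 2.57 and 2.62 against 2.13, 2.37 and 2.40.

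Nfe2l2 encodes Nrf2 itself. Its level was 5.35 and 4.85 in c-Jun-deleted 1 and 9, against 5.37, 5.32 and 5.80 in wild-type 5, 11 and 14. The array of c-Jun-deleted 9 was the lowest and that of wild-type 14 the highest, while the other 3 lay together and joined the groups. Nfe2l2 was 1.32-fold lower in the mean (log2 difference -0.40, SE 0.25, 95% interval -1.05 to 0.25; limma adjusted p = 0.546). Leaving out c-Jun-deleted 9 gave -0.15, and leaving out c-Jun-deleted 1 gave -0.65.

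Keap1 encodes the adaptor that holds Nrf2 in the cytoplasm. It was at 3.05 and 2.93 in c-Jun-deleted macrophages and at 2.88, 3.08 and 2.54 in wild-type ones. Here wild-type 14, where Nfe2l2 was highest, was the lowest array, and both c-Jun-deleted values lay inside the wild-type range. The log2 difference was 0.15 (SE 0.21; limma adjusted p = 0.782), and it was 0.0049 without wild-type 14.

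Slc7a11 encodes xCT, the exchanger subunit that brings cystine into the cell for glutathione. It was at 0.42 and -1.17 in c-Jun-deleted 1 and 9, and at 0.01, -0.72 and 1.31 in wild-type 5, 11 and 14. Each group held both a high and a low animal: in multiples of the 75th percentile the c-Jun-deleted samples were at 1.34 and 0.444 and the wild-type samples at 1.01, 0.609 and 2.48. Slc7a11 varied 5.58-fold between its highest and lowest array, a wider range than 90.4% of all genes tested had. The log2 difference was -0.58 (SE 0.78; limma adjusted p = 0.777), and it was 0.22 without c-Jun-deleted 9 and -0.022 with wild-type 14 left out.

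Gclc encodes the catalytic subunit of glutamate-cysteine ligase, the rate-limiting enzyme of glutathione synthesis. It was at 2.57 and 2.62 in c-Jun-deleted macrophages, above the 2.13, 2.37 and 2.40 of wild-type ones, so the groups did not overlap. The c-Jun-deleted samples were 1.23-fold higher (log2 difference 0.29, SE 0.16, 95% interval -0.11 to 0.70; limma adjusted p = 0.492), which did not pass the test. Leaving out single arrays moved the difference between 0.21 (without wild-type 5) and 0.35 (without wild-type 14). The summed B cell markers also lay apart between the groups, at 323 and 472 against 48.9 to 95.4, and their part in the Gclc difference was not tested. In RNA of mixed cells, fewer cells of a type and less RNA per cell cannot be told apart.

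Gclm encodes the modifier subunit of the same ligase. Its level was 1.77 and 1.17 in c-Jun-deleted 1 and 9, and 1.15, 1.04 and 1.45 in wild-type 5, 11 and 14. Only c-Jun-deleted 1 stood above the wild-type range. The log2 difference of 0.26 (SE 0.25; limma adjusted p = 0.690) was 0.56 with c-Jun-deleted 9 left out and -0.047 with c-Jun-deleted 1 left out.

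Txnrd1 encodes the cytosolic thioredoxin reductase, which keeps thioredoxin reduced at the expense of NADPH. It was at 4.85 and 4.48 in c-Jun-deleted macrophages and at 4.61, 4.65 and 5.24 in wild-type ones. Wild-type 14 was the highest and c-Jun-deleted 9 the lowest array, as for Nfe2l2. The log2 difference was -0.17 (SE 0.27; limma adjusted p = 0.812), 0.034 without wild-type 14 and 0.014 when c-Jun-deleted 9 was left out. Srxn1 encodes sulfiredoxin, which repairs overoxidised peroxiredoxins, and its promoter window is the one with AP-1 elements. It was at 5.15 and 4.63 in c-Jun-deleted macrophages, against 4.90, 4.82 and 5.26 in wild-type ones. The extremes were again wild-type 14 and c-Jun-deleted 9. Its log2 difference was -0.10 (SE 0.24; limma adjusted p = 0.883), 0.032 without wild-type 14, 0.16 when c-Jun-deleted 9 was left out and 0.11 when arrays were centred on their medians, where the Txnrd1 difference was 0.041.

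Nqo1 encodes the quinone reductase that is widely used as a readout of Nrf2. It was at -0.30 and -1.52 in c-Jun-deleted 1 and 9 and at -1.45, -2.16 and -0.27 in wild-type 5, 11 and 14. The 2 high animals, c-Jun-deleted 1 and wild-type 14, were of different genotype, and wild-type 11 was the lowest. Within the wild-type group alone Nqo1 varied 3.71-fold, while the means of the genotypes differed 1.30-fold (log2 difference 0.38, SE 0.68; limma adjusted p = 0.835). Leaving out c-Jun-deleted 9 gave 0.99, and it was -0.22 without c-Jun-deleted 1 and -0.051 without wild-type 11.

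Hmox1 encodes heme oxygenase 1, which opens the heme ring and releases iron, carbon monoxide and biliverdin; besides Nrf2 it is controlled by the repressor Bach1. The brighter of its 2 probes was at 6.39 and 5.81 in c-Jun-deleted macrophages and at 6.13, 6.25 and 6.64 in wild-type ones. The dimmer probe was at 3.57 and 2.99 against 3.42, 3.44 and 3.84. Both probes ranked wild-type 14 first, c-Jun-deleted 1 next and c-Jun-deleted 9 last. The log2 difference was -0.24 (SE 0.27; limma adjusted p = 0.728) for the brighter and -0.29 (SE 0.25; limma adjusted p over all probes = 0.656) for the dimmer probe, and the first was 0.056 without c-Jun-deleted 9.

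Sqstm1 encodes p62, an autophagy receptor that binds Keap1 and is itself a target of Nrf2. It was at 3.15 and 3.31 in c-Jun-deleted macrophages and at 3.00, 3.74 and 3.10 in wild-type ones. Wild-type 11 stood above the other 4 arrays, which lay between 3.00 and 3.31. The log2 difference was -0.051 (SE 0.27; limma adjusted p = 0.952), 0.18 without wild-type 11, 0.028 when c-Jun-deleted 1 was left out and 0.16 when arrays were centred on their medians.

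The slide gave a second view of the same 10 genes, since each slide held a c-Jun-deleted array. Within slide 1, c-Jun-deleted 1 was higher than wild-type 5 for 9 of the 10 genes, all but Nfe2l2, with a median log2 difference of 0.26, where 38.6% of all genes were higher and the median was -0.095. Within slide 2, c-Jun-deleted 9 was higher than the mean of wild-type 11 and 14 for 2 of them, Keap1 and Gclc, with a median of -0.35, where 43.6% of all genes were higher and the median was -0.072. The sign differed between the slides for 7 of the 10 genes and for 36.3% of all genes. The spread was widest for Slc7a11, at 0.41 within slide 1 and -1.47 within slide 2, and for Nqo1, at 1.14 and -0.30. Gclc was at 0.44 and 0.24 and Keap1 at 0.17 and 0.11, while Nfe2l2 was at -0.024 and -0.71. Each slide has a single c-Jun-deleted animal, so animal and slide cannot be told apart, and the difference between the slides was not tested. Slide 2 also held wild-type 11, the only male by Xist and Ddx3y, and the part of sex was not tested. The 2 c-Jun-deleted animals also differed in Lyz2, the Cre locus by the genotype label, at 4.46 in 1 and 8.52 in 9. Whether both had the same Cre genotype was not tested. With the slide as a term of the model the differences lay between -0.66 (Slc7a11) and 0.32 (Gclc and Nqo1), with limma adjusted p from 0.596 to 0.999.

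**Figure D2:**
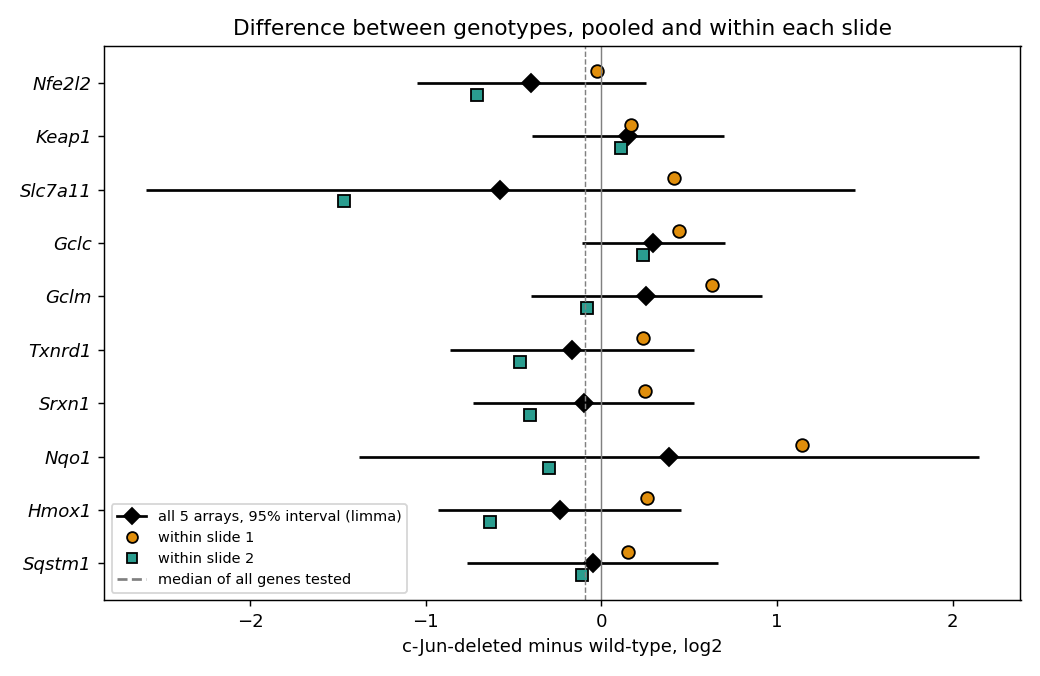
Log2 difference, c-Jun-deleted minus wild-type (x axis), for each gene: diamonds are all 5 arrays with the 95% interval of the limma fit, circles slide 1 (1 array against 1) and squares slide 2 (1 against 2). Every interval crosses 0, and 9 of 10 circles but 2 of 10 squares lie right of it.

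Across the 5 arrays the genes did not form 1 pattern. Nfe2l2, Slc7a11, Txnrd1, Srxn1 and Hmox1 were all highest on wild-type 14 and lowest on c-Jun-deleted 9, an order of extremes that 14.3% of all genes had. Nqo1 was highest on wild-type 14 too, Gclm on c-Jun-deleted 1, Gclc on c-Jun-deleted 9, and Keap1 and Sqstm1 on wild-type 11. The summed B cell markers had their highest value, 472, on c-Jun-deleted 9 and their lowest, 48.9, on wild-type 14, the opposite ends, and their part in this order was not tested. After each gene was centred on its mean, Hmox1 lay nearest to Nfe2l2 among the 9 others, with a root mean square difference of 0.099 in log2 over 5 arrays, and 0.915% of the 14640 other named genes lay nearer still. Txnrd1 followed at 0.14 (3.32% nearer) and Srxn1 at 0.15 (4.61%). Gclm was at 0.32, Gclc at 0.41, Keap1 at 0.45, Sqstm1 at 0.45, Slc7a11 at 0.61 and Nqo1 at 0.63, distances within which 45.3% to 80.7% of named genes lay. The values were not scaled to equal range, so a wider range alone adds to the distance. Slc7a11, with the same extremes as Nfe2l2, spanned 2.48 in log2 over the arrays and Nfe2l2 0.95. These are descriptions over 5 arrays that share scaling and cell mixture.

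**Figure D3:**
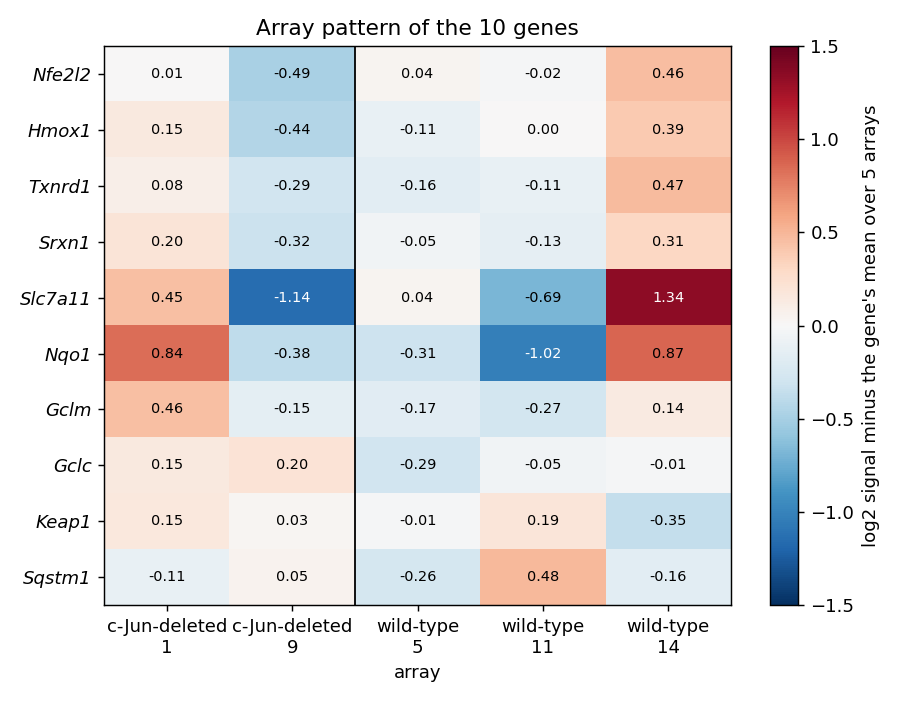
Colour and number give the log2 signal of each gene (rows) on each array (columns) minus the gene's mean over the 5 arrays; the line separates c-Jun-deleted from wild-type. The 5 upper rows have their highest value on wild-type 14 and their lowest on c-Jun-deleted 9, and Keap1 and Sqstm1 at the bottom are highest on wild-type 11.

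Among all named genes, Cbwd1, Cybb and Ptpre had the pattern most like that of Nfe2l2, with root mean square differences of 0.030, 0.036 and 0.040. Cybb, which encodes the catalytic subunit of the phagocyte NADPH oxidase, was at 4.94 and 4.36 in c-Jun-deleted macrophages and at 4.89, 4.91 and 5.36 in wild-type ones. It therefore had the same extremes as Nfe2l2. Nearest to Slc7a11, the gene with the widest range, were Spint1 (0.12), Gpr84 (0.18) and Hecw2 (0.18). Gpr84, a receptor for medium-chain fatty acids that inflammatory stimuli induce, was at 4.72 and 3.48 in c-Jun-deleted macrophages, against 4.77, 4.05 and 5.80 in wild-type ones. Like Slc7a11 it was highest on wild-type 14 and lowest on c-Jun-deleted 9.

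The wider pathway was read from 7 lists ordered by role, with 115 of 122 listed genes tested. Of these, 0 passed limma's adjusted threshold, and 9 (7.83%) had an unadjusted p below 0.05, 4 with a positive and 5 with a negative difference, next to 12.2% of all genes. The groups did not overlap for 28 (24.3%), 8 higher and 20 lower, next to 33.5% of all genes. The median log2 difference over the lists was -0.13. All 7 list medians were below 0, between -0.19 and -0.084, and all 7 were above 0, between 0.024 and 0.13, when arrays were centred on their medians, which moved the median of all genes to 0.12.

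Among control genes and partners, 20 were tested. The groups did not overlap for 2 higher and 4 lower genes (30%, next to 33.5% of all genes). Bach2, a repressor of the same element family that is typical of B cells, was at 0.68 and 1.16 in c-Jun-deleted macrophages and at -0.72, -0.31 and -1.19 in wild-type ones (log2 difference 1.66, SE 0.32; limma adjusted p = 0.227), beside B cell markers that also lay apart. Its difference is that of its brightest probe, and the mean of its probes gave 2.01. Maff, a small Maf protein and possible partner of Nrf2, was at -1.16 and -2.08 against -0.88, -0.41 and 0.19 (-1.26, SE 0.44; limma adjusted p = 0.38), with a difference of -0.80 without c-Jun-deleted 9 and of -0.29 within slide 1. Syvn1, an endoplasmic reticulum ubiquitin ligase also known as Hrd1, was at 5.44 and 5.55 against 5.01, 4.49 and 4.98 (0.67, SE 0.22; limma adjusted p = 0.361). Bach1, the repressor of Hmox1, had a log2 difference of -0.25 and Cul3, the scaffold of the ligase that takes Nrf2 from Keap1, one of -0.047.

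The glutathione list had 26 genes tested, with 3 higher and 3 lower without overlap (23.1%, next to 33.5% of all genes). Mgst2, a microsomal glutathione transferase, was at 2.79 and 3.14 in c-Jun-deleted macrophages, against 1.06, 1.31 and 0.89 in wild-type ones. The gap between the groups was wider than the spread inside either, a 3.67-fold difference (log2 difference 1.88, SE 0.21; limma adjusted p = 0.212). It passed the threshold only when arrays were centred on their medians (2.09; limma adjusted p = 0.0457), and under the other alternatives its adjusted p lay between 0.0530 and 0.751. Within slide 1 it was 1.73 and within slide 2 it was 2.04, and the summed B cell markers lay apart in the same way, which was not tested as a source. Gsta4 was well above background on 0 of 2 c-Jun-deleted and 2 of 3 wild-type arrays and was at least 1.91-fold lower in c-Jun-deleted macrophages (measured mean -5.64, against -4.26 in wild-type ones; limma adjusted p = 0.419), while normexp background correction put its log2 difference at -0.34, a smaller change than that bound. Gsta2 was at -5.35 and -6.75 against -5.11, -4.07 and -3.69 and well above background on 1 of 2 c-Jun-deleted and 2 of 3 wild-type arrays (limma adjusted p = 0.378), and normexp background correction put its difference at -0.44 in place of -1.76.

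Thioredoxin and peroxiredoxin genes (13 tested) had 1 gene without overlap (7.69%, next to 33.5% of all genes). This was Txnip, an inhibitor of thioredoxin, at 4.47 and 4.66 against 4.45, 4.40 and 4.23 (log2 difference 0.20). The mean of its probes gave 0.060. Quinone and carbonyl genes (19 tested) had 2 higher and 2 lower without overlap (21.1%). Among them were the aldehyde dehydrogenase Aldh2 (log2 difference 0.43), the aldo-keto reductase Akr1c13 (-0.55, and -0.34 with c-Jun-deleted 9 left out) and Osgin1 (-0.33). Of 10 NADPH supply genes, Tkfc (-0.36, and -0.22 with c-Jun-deleted 9 left out) was the 1 without overlap (10%). Among 10 heme and iron genes, 4 were lower and 0 higher without overlap (40%, next to 33.5% of all genes, with 20.2% lower). The 4 included the iron exporter ferroportin, Slc40a1 (-1.02), the heme exporter gene Flvcr1 (-0.37) and the ferritin light chain Ftl1 (-0.29). The Flvcr1 difference was -0.17 without c-Jun-deleted 9, and that of Ftl1 was -0.13 with the mean of its probes and -0.080 under quantile normalization. The globin markers that lay above the wild-type values in c-Jun-deleted samples were not tested as a part of these differences. Slc40a1 was at -3.32 and -3.34 in c-Jun-deleted macrophages and at -3.11, -2.51 and -1.33 in wild-type ones, and its difference was -0.52 without wild-type 14. Of 17 autophagy genes tested, 35.3% did not overlap, next to 33.5% of all genes (with 20.2% lower). They had 0 higher and 6 lower genes without overlap. These included the kinase Ulk1, which starts autophagy (4.60 and 4.49 against 5.28, 4.85 and 5.36), Wdfy3, a selective autophagy adaptor (-0.91 and -1.06 against -0.36, -0.52 and -0.22), and Atg5 (3.96 and 3.55 against 4.23, 4.17 and 4.67). Their log2 differences were -0.62, -0.62 and -0.61, with limma adjusted p of 0.373, 0.293 and 0.416, and the median of all 17 was -0.19. Atg5 was at -0.40 when c-Jun-deleted 9 was left out.

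**Figure D4:**
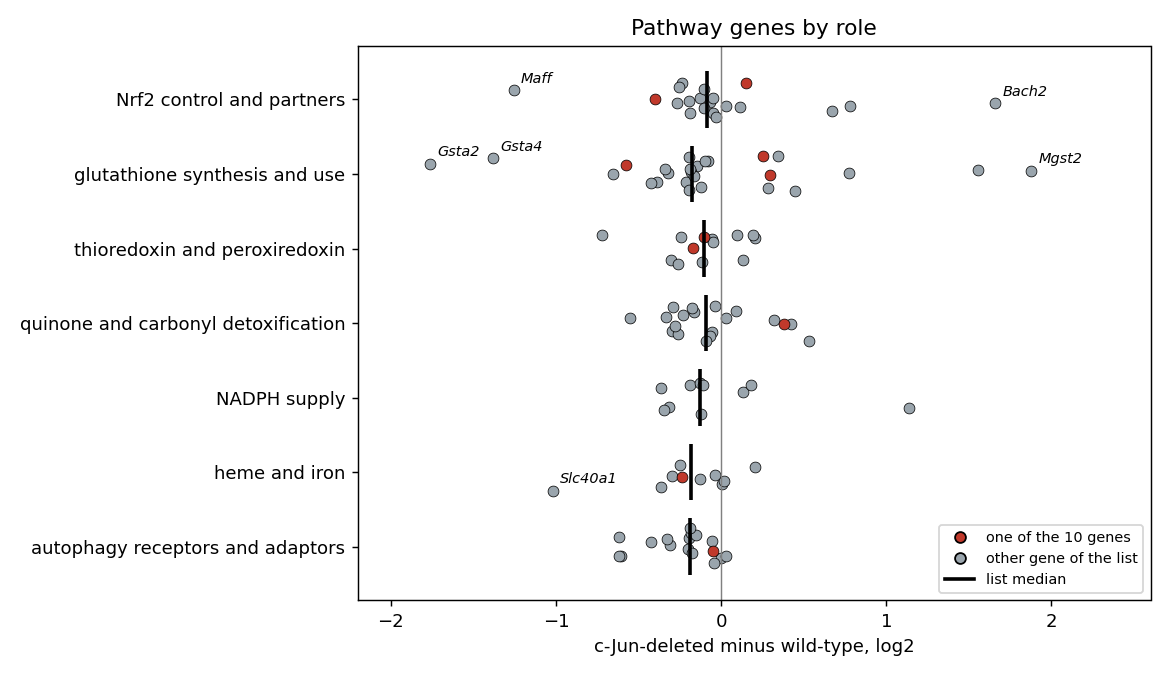
Log2 difference, c-Jun-deleted minus wild-type (x axis), of every tested gene in 7 pathway lists (rows); red points are among the 10 genes, grey points are other genes, and black bars are list medians. Points of the 10 genes lie between -0.58 and 0.38, while Mgst2 (1.88) and Bach2 (1.66) lie farthest right and Gsta2 (-1.76) farthest left.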

How the data were processed

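RNA of adherent peritoneal macrophages was measured on 5 arrays, and the authors' deposited scanner files hold spot intensities from Feature Extraction 11.5.1.1, background-subtracted and with no scaling between arrays, per the file headers. The deposited files also hold flags, an other kind of value, used for filtering. Array design was on mm9, so no probe or gene coordinates are printed, and the coordinates of promoter windows are those of the RefSeq table (GRCm38.p6); transcript accessions were matched without version to RefSeq symbols (28026 of 55681 probes). The main value is log2 of the processed signal minus log2 of each array's 75th percentile over 59305 non-control spots. Flagged spots were left out, spots of 1 probe averaged, and probes well above background on at least 2 arrays kept (32821, of which 32565 had a value on every array). Each gene was represented by the probe with the highest mean, unnamed probes entered as they were, and 27938 genes were tested with limma 3.58.1 in R 4.3.3 (2-sided, no covariate, Benjamini-Hochberg over all genes, threshold 0.05). Where no array of a group measured a gene well above background, its fold was set by using there the higher of its signal and the dimmest well-measured signal. This fold takes no account of the spread between arrays. The fit was tested on simulated data. Samples were grouped by title. The series' design text counts 2 and 3 mice, so each array was taken as 1 animal. Precision is limited by the number of arrays. Of each pathway list, up to 3 other genes with the largest difference among those without overlap were named, as were Jun and the 3 named genes nearest to Nfe2l2 and to the member of widest range. Bach1, Cul3, the named cell markers, Xist and Ddx3y were added after their values were seen. The genes and lists were chosen with earlier results of these data known. The deposited series table and protein sequences were not used here. Alternatives were other background correction, scalings, filters, probe rules and slides, and each array left out; the planned normexp correction used the median spot signal.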

Additional observations from a re-analysis of the deposited data

How the results depend on the processing

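Over 15 alternatives, 0 of the 10 genes passed the adjusted threshold in the 14 that allow a test, with adjusted p no lower than 0.354 (Nqo1), and of 150 differences 26 changed sign. Nfe2l2 (-0.71 to -0.024), Keap1 (0.0049 to 0.36) and Gclc (0.21 to 0.51) kept their direction throughout. Scaling changed the sign of small differences: median centring put the median of all genes at 0.12, against -0.092 by the 75th percentile, and gave 187 genes past the threshold (179 higher, 8 lower) in place of 0, with Txnrd1 at 0.041, Srxn1 at 0.11 and Sqstm1 at 0.16, and quantile normalization put Srxn1 at 0.018 and Sqstm1 at 0.011. Within slide 1, where the median of the 10 genes was 0.26, Slc7a11 was at 0.41, Txnrd1 at 0.24, Srxn1 at 0.25, Hmox1 at 0.26 and Sqstm1 at 0.15; within slide 2 Gclm was at -0.081 and Nqo1 at -0.30; with the slide as a block Sqstm1 was at 0.00092. Without single arrays the differences ran from -1.37 to 0.22 for Slc7a11, -0.047 to 0.56 for Gclm, -0.35 to 0.034 for Txnrd1, -0.36 to 0.16 for Srxn1, -0.22 to 0.99 for Nqo1, -0.53 to 0.056 for Hmox1 and -0.19 to 0.18 for Sqstm1, and the median of the 10 genes from -0.29 to 0.18. Unadjusted calls over all genes numbered 3395, 1688 without c-Jun-deleted 9 and 1836 within slide 2, whose lone c-Jun-deleted array was given the wild-type spread. Source names number mice 1 and 2 in both groups, which the titles do not; a replicate block on those numbers (4 arrays) put Txnrd1 at 0.034 and Srxn1 at 0.032, called 0 genes and left 1 of the 10 genes, Nqo1 (0.89), below an unadjusted 0.05. With 2 such pairs, nothing shows that the numbers pair the samples. The alternative from the authors' deposited table was not run. The causes were not tested.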
